A study of Mus musculus with 4 samples.

Results

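The genes described here are 8 genes of the chemokine system that builds and fills lymphoid follicles: the ligands Cxcl13, Ccl19, Ccl21a and Cxcl12, the receptors Cxcr5, Ccr7 and Cxcr4, and the transcription factor gene Bcl6. They were taken by gene symbol from the list of WT replicate 1 and looked up by identifier in the other count lists, and all 8 were found among the 19308 genes listed for every library. RNA sequencing was carried out on total RNA of colonic mucosa from 2 WT samples, labelled as genotype C57BL/6, and 2 Itch KO samples, which lack the ubiquitin ligase gene Itch. The labels call all 4 samples inflamed, whereas the protocol uses that word for the knockout mucosa alone, and neither the age of the mice nor the strain of the knockouts is stated. Whether each replicate was a separate animal is not stated, so the p-values below reflect the spread among these libraries alone, which may be technical.

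Chemokines are small secreted proteins that direct the movement of leukocytes through G protein-coupled receptors. In lymphoid organs CXCL13, made by follicular stromal cells, draws CXCR5-bearing B cells and follicular helper T cells into follicles, while CCL19 and CCL21 draw CCR7-bearing T cells and dendritic cells into the T cell zone. CXCL12 acts on CXCR4, which many leukocytes carry, and BCL6 is the repressor that germinal centre B cells and follicular helper T cells depend on. The colon holds isolated follicles and lymphoid patches in its wall, and organised lymphoid tissue can form anew in chronically inflamed mucosa. The comparison of knockout with WT mucosa asks how far these signs of follicles differ between the genotypes. In whole mucosa, more cells of a type and more RNA per cell cannot be told apart.

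Library totals over the shared genes ran from 8181193 to 12199709 counts, and levels are given as CPM, the count scaled to a common library size with TMM factors. Itch was at 204 and 183 CPM in the WT pair and at 11.9 and 13.4 in the knockout libraries, so the target gene followed the labels. The colon epithelium markers, among them Epcam and Cdx2, were present in all 4 libraries, with summed levels of 1267 to 1681 CPM. Cdx2 itself was uneven: WT replicate 1 held 24.3 CPM, while the remaining libraries ranged from 115.3 to 139.7 CPM. No other colon epithelium marker had its lowest level in WT replicate 1. WT replicate 1 stood apart: its 8 squamous epithelium markers summed to 590 CPM against 13.5 to 17.8 in the other libraries, and of these Dsg3 was at 0 in WT replicate 2 and Ivl at 0 in WT replicate 2 and Itch KO replicate 1. Its 8 neutrophil markers summed to 224 CPM against 20.8 in WT replicate 2. Ltf alone was at 126 CPM in WT replicate 1, above the knockout libraries at 58.1 and 82.9. The other markers of that list were lower in WT replicate 1 than in either knockout library.

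Across the 8 genes, the receptors Cxcr5 and Ccr7 and the ligands Cxcl13 and Ccl19 differed most between genotypes, by 4.14-fold to 26.8-fold in mean CPM. Cxcr4 was 3.24-fold higher, and the ratios of knockout to WT means were 1.66 for Bcl6, 1.56 for Ccl21a and 1.26 for Cxcl12. The median log2 fold change of the 8 was 1.87, beside 0.01 over all genes tested. For 7 of the 8 genes both knockout libraries lay above both WT libraries, and Cxcl12 overlapped. Of all 16956 genes tested, 30.0% lay above in this way and 26.0% below. No gene passed edgeR's quasi-likelihood test at an adjusted p of 0.05, among the 8 or among all genes (0% of genes called). At an unadjusted p under 0.05, 6 of the 8 were higher, against 10.2% of all genes. DESeq2, run as an alternative, called 5 of the 8 higher, against 5.35% of all genes. These 5 were Cxcl13, Cxcr5, Ccl19, Ccr7 and Cxcr4, and limma voom called 0 of them. Without WT replicate 2 DESeq2 called 3 of the 8, and without Itch KO replicate 2 it called 2.

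**Figure D1:**
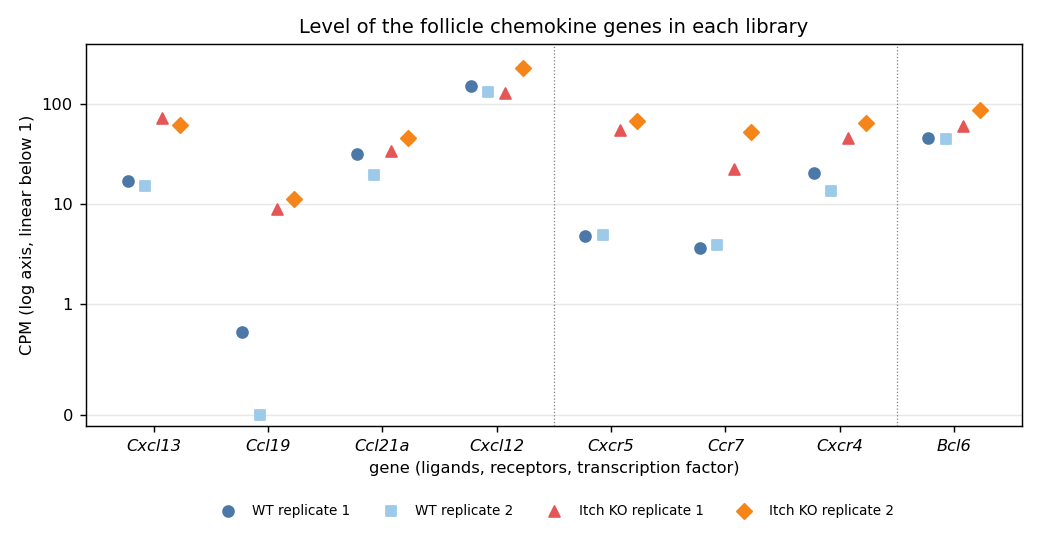
CPM of each of the 8 genes (log axis, linear below 1) in the 4 libraries, with 1 point per library and dotted lines between ligands, receptors and Bcl6. Cxcr5, at 4.80 and 4.97 CPM in the WT pair, stands at 55.8 and 68.2 in the knockout libraries, while the Cxcl12 points of the groups overlap.

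Cxcl13 (ENSMUSG00000023078, GRCm38 chr5:95956951-95961068, plus strand, protein-coding) encodes the B cell attracting chemokine of follicles. Its upstream sequence is shown beside that of Cxcl12 to set a ligand whose groups lay far apart beside the ligand whose groups overlapped. The lines below give the 250 bases before the RefSeq start of each gene (GRCm38.p6), 5′ to 3′ on the gene's strand. For Cxcl13 this is chr5:95956689-95956938 and for Cxcl12 chr6:117168285-117168534, both on the plus strand. Capitals mark matches, on either strand, to the TATA box letters TATAAA and to an NF-kB pattern, GGG and CC with any 5 bases between them.
Cxcl13: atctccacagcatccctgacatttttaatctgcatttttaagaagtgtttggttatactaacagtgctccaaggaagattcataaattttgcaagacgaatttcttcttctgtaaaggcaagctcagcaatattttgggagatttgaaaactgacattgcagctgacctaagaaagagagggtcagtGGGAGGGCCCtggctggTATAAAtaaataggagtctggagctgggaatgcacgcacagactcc
Cxcl12: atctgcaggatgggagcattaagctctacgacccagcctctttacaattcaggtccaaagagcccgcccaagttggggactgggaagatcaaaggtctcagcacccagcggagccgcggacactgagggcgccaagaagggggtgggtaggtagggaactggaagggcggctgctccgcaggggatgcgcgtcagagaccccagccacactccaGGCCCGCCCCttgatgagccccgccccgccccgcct
The Cxcl13 stretch held a TATAAA match that begins 46 bases before the start and an NF-kB match at 63 bases that reads on both strands, which did not overlap, and the Cxcl12 stretch held only an NF-kB match, on the opposite strand, at 36 bases. TATAAA occurred in 12.4% of 32851 upstream stretches of the same length, and the NF-kB pattern in 45.8%. Of the 8 genes, 6 had an entry in the RefSeq table, with Cxcr5 and Ccr7 not among them. Cxcr4 also held TATAAA, read on both strands at 1 overlapping place, and Ccl19, Ccl21a and Bcl6 did not.

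Cxcl13 counts were 160 and 188 in WT and 587 and 600 in the knockout libraries. In CPM these were 17.1 and 15.3 against 72.1 and 62.0, with means of 16.2 ± 1.24 and 67.1 ± 7.18 (SD, n = 2 per genotype). The groups lay far apart relative to the spread within them, and Cxcl13 was the only one of the 8 genes for which knockout replicate 1 exceeded replicate 2. The log2 fold change was 2.05 (SE 0.20). Its edgeR adjusted p was 0.122, and DESeq2 gave 1.30e-08. With any 1 library left out, the log2 fold change stayed between 1.94 and 2.16 in edgeR, and DESeq2's adjusted p stayed between 0.000421 and 0.0155.

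Cxcl12 (ENSMUSG00000061353, GRCm38 chr6:117168535-117181367, plus strand) encodes the chemokine that stromal and endothelial cells make in most tissues. It had the highest counts of the 8 genes. Levels were 153 and 132 CPM in the WT pair and 130 and 229 in knockout mucosa, with means of 143 ± 14.7 and 179.8 ± 69.8 (SD, n = 2 per genotype). Itch KO replicate 1 lay below both WT libraries and replicate 2 above them. The log2 fold change was 0.33 (SE 0.31, edgeR adjusted p = 0.571, DESeq2 adjusted p = 0.695) and turned to -0.12 without Itch KO replicate 2. The 8 fibroblast markers summed to 1681 and 1037 CPM in the WT pair and 1326 and 2001 in knockout libraries. Itch KO replicate 2 was highest for both, while the lowest library was WT replicate 2 for this sum and Itch KO replicate 1 for Cxcl12. Set against that sum, Cxcl12 stood at 9.11% and 12.8% in WT and at 9.84% and 11.4% in knockout mucosa, so the ratios overlapped too.

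Ccl19 and Ccl21a lie side by side on chromosome 4, in a region with several near-identical copies. Ccl19 (ENSMUSG00000071005, GRCm38 chr4:42754525-42756577, minus strand) encodes a ligand of CCR7 that stromal and dendritic cells of the T cell zone make. It was barely detected in WT mucosa, with 7 and 0 counts, where a count of 0 allows up to 0.244 CPM by counting error alone. The knockout libraries held 72 and 108 counts, 8.85 and 11.2 CPM. The log2 fold change was 4.78 (SE 1.41, edgeR adjusted p = 0.199), and DESeq2 called it higher (adjusted p = 0.0113). That call was lost without WT replicate 2, the library at 0, where DESeq2 gave a log2 fold change of 3.71 and an adjusted p of 0.0586. It was also lost without either knockout library, with DESeq2 adjusted p-values of 0.248 and 0.4998. Without WT replicate 1 the WT level was 0 counts, so the knockout mean was at least 40.9-fold higher against a floor of 3 counts in that library, and DESeq2 kept the call (adjusted p = 0.00182). A second Ccl19 locus on the unplaced scaffold JH584294.1 held 5 and 2 counts in WT and 30 and 48 in knockout libraries. Summed over both loci Ccl19 was at 1.28 and 0.163 CPM against 12.5 and 16.1, which is 19.9-fold in the mean, compared with 26.8-fold for the named gene alone.

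Ccl21a (ENSMUSG00000094686, GRCm38 chr4:42772860-42773993, minus strand) encodes the other CCR7 ligand, made by lymphatic endothelium and by stroma of the T cell zone. Both this gene and Ccl19 lie within the span of 4930578G10Rik on the other strand. The count lists hold 9 Ccl21 loci, 5 on chromosome 4 and 4 on unplaced scaffolds. Coding sequences of the 5 on chromosome 4 were compared in GENCODE M21 transcripts. Ccl21b, Gm21541, Gm13304 and Gm10591 shared 1 identical coding sequence of 402 bases, which differed from Ccl21a at 2 bases, T84A and C194T, counted from the A of the start codon with the Ccl21a base first. The stretch from base 69 to base 209 is shown because it holds both differences, in capitals.
Ccl21a: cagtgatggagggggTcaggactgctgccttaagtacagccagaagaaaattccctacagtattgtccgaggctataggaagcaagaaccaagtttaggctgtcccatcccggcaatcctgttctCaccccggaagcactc
Ccl21b: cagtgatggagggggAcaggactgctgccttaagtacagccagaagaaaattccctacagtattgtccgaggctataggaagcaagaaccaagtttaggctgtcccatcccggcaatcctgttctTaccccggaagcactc
A read that covers neither of these bases matches every one of the 5 coding sequences, and how such reads were counted is not given in the sources used here. The Ccl21a level is therefore uncertain.

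The named Ccl21a gene had 296 and 238 counts in WT and 277 and 441 in knockout libraries, 18.5% to 21.7% of the counts over the 9 loci in each library. In CPM it was at 31.6 and 19.4 in WT and 34.0 and 45.5 in knockout mucosa. Itch KO replicate 1 was thus close to WT replicate 1, and the log2 fold change of 0.64 (SE 0.34) was not called (edgeR adjusted p = 0.366, DESeq2 adjusted p = 0.491). Without WT replicate 1 it was 1.06 and without WT replicate 2 it was 0.33, neither past the threshold (edgeR adjusted p = 0.328 and 0.721). Over all 9 loci the sums were 156 and 90.1 CPM in the WT pair and 157 and 246 in knockout libraries, and the ratios of the single loci ran from 1.35 to 1.85. Of the 9 loci 4 had both knockout libraries above both WT libraries, and 5 overlapped, where 30.0% of all genes tested lay above in this way. As near-identical copies, the loci are not separate observations.

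**Figure D2:**
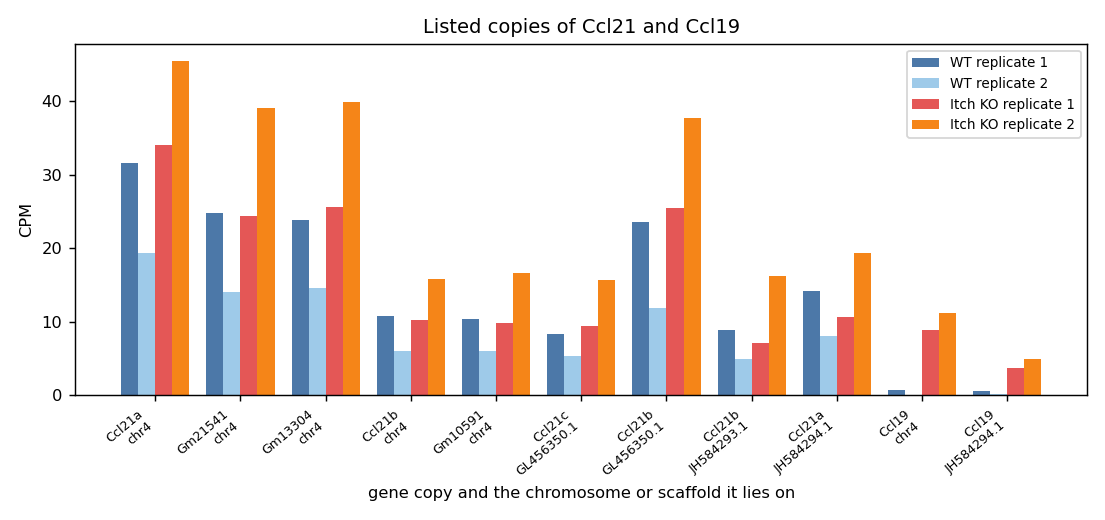
CPM of the 9 listed Ccl21 loci and the 2 Ccl19 loci, with 1 bar per library and the chromosome or scaffold under each GENCODE name. All Ccl21 loci show higher values in 1 of the WT libraries, replicate 1 above replicate 2, while both Ccl19 loci are near 0 in WT.

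Among the receptors, Cxcr5 (ENSMUSG00000047880, GRCm38 chr9:44511787-44561877, minus strand), the CXCL13 receptor of follicular B and helper T cells, had the smallest edgeR p of the 8 genes. Both knockout libraries lay above WT by a margin far wider than the spread, and counts were 45 and 61 in WT and 454 and 660 in knockout libraries. In CPM the means were 4.89 ± 0.120 and 62.0 ± 8.76 (SD, n = 2 per genotype), a 12.7-fold difference. The log2 fold change was 3.66 (SE 0.25, edgeR adjusted p = 0.114, DESeq2 adjusted p = 1.19e-19). Leaving out any 1 library kept it between 3.52 and 3.80 and past DESeq2's threshold. The last bases of the gene overlap Bcl9l on the other strand, and without a stated strand setting reads there cannot be told apart.

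Ccr7 (ENSMUSG00000037944, GRCm38 chr11:99144196-99155077, minus strand), the receptor that brings naive T cells and mature dendritic cells to the T cell zone, was the most uneven of the genes in knockout mucosa. It had 34 and 48 counts in WT and 185 and 505 in knockout libraries. Levels were 3.63 and 3.91 CPM in the WT pair, and Itch KO replicate 2, at 52.2 CPM, was 2.29 times replicate 1, at 22.7. The log2 fold change of 3.31 (SE 0.54) had an edgeR adjusted p of 0.127 and a DESeq2 adjusted p of 2.93e-06. DESeq2's call was lost without Itch KO replicate 2 (log2 fold change 2.59, adjusted p = 0.162).

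Cxcr4 (ENSMUSG00000045382, GRCm38 chr1:128588199-128592293, minus strand) encodes the CXCL12 receptor of lymphocytes, neutrophils and other leukocytes. Levels were 20.6 and 13.4 CPM in the WT pair and 45.5 and 64.7 in knockout libraries, and the groups did not overlap. The log2 fold change was 1.70 (SE 0.34, edgeR adjusted p = 0.134, DESeq2 adjusted p = 0.00201). DESeq2's call was lost on leaving out WT replicate 2, with an adjusted p of 0.135, or Itch KO replicate 2, with an adjusted p of 0.369.

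Bcl6 (ENSMUSG00000022508, GRCm38 chr16:23965052-23988852, minus strand) was at 45.6 and 44.4 CPM in the WT pair and at 60.9 and 88.3 in knockout mucosa. The WT libraries were nearly equal and both knockout libraries lay above them. The difference, a log2 fold change of 0.73 (SE 0.23), did not pass (edgeR adjusted p = 0.211, DESeq2 adjusted p = 0.172). Without Itch KO replicate 2 it was 0.45. Bcl6 is also transcribed outside lymphocytes, so its WT level cannot be assigned to follicles from these counts.

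**Figure D3:**
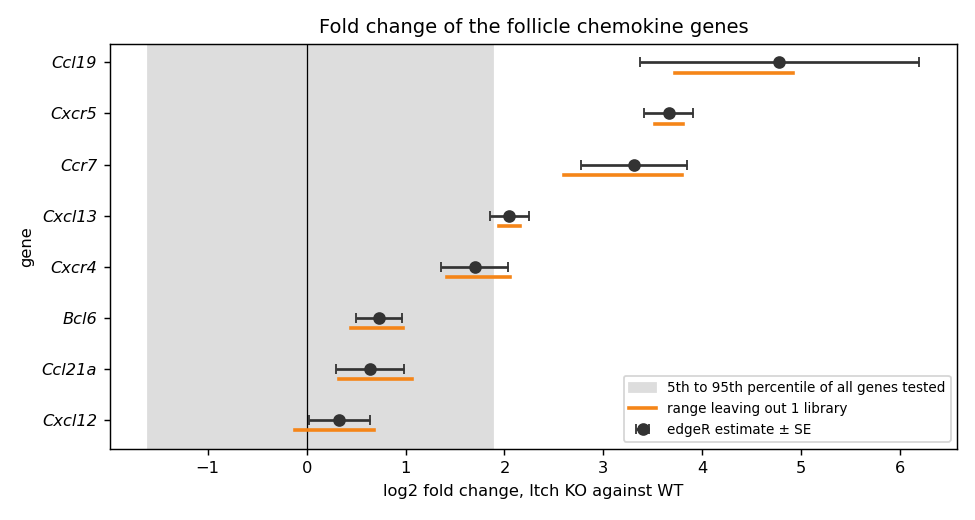
edgeR log2 fold change of each gene (point, with its standard error as a bar), the range when 1 library is left out (orange line; for Ccl19 without the fit whose WT group held 0 counts) and the 5th to 95th percentile of all 16956 tested genes (grey, -1.60 to 1.88). Ccl19, Cxcr5, Ccr7 and Cxcl13 lie above the grey band and Cxcl12 spans 0.

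Per kb of annotated exon, levels of different genes can be set beside each other. In WT mucosa the order was Ccl21a (29.3 ± 9.90 CPM per kb), Cxcl12 (17.5 ± 1.797), Cxcl13 (14.1 ± 1.08), Cxcr4 (9.41 ± 2.79) and Bcl6 (6.71 ± 0.120), followed by Ccr7 (1.91 ± 0.102), Cxcr5 (1.47 ± 0.0361) and Ccl19 (0.431 ± 0.609; SD, n = 2 per genotype). With these lengths no neighbours in that order had overlapping library values. With the length of the longest transcript instead, Bcl6 (11.4 ± 0.205 CPM per kb) came before Cxcr4 (9.43 ± 2.80) in WT mucosa and overlapped it, and Cxcl12 (25.4 ± 2.61) overlapped Ccl21a. In knockout mucosa Cxcl13 came first (58.3 ± 6.25 CPM per kb), then Ccl21a (45.7 ± 9.36), Cxcr4 (30.5 ± 7.51), Cxcl12 (22.0 ± 8.54), Ccr7 (18.9 ± 10.5), Cxcr5 (18.6 ± 2.63), Ccl19 (11.5 ± 1.88) and Bcl6 (11.1 ± 2.89). Library values overlapped between Cxcr4 and Cxcl12, Cxcl12 and Ccr7, Ccr7 and Cxcr5, and Ccl19 and Bcl6, so those neighbours are not ordered beyond their spread. With the longest transcript the knockout order after Ccl21a was Cxcl12, Cxcr4, Cxcr5, Bcl6, Ccr7 and Ccl19. Levels per kb of Ccl21a and Ccl19 carry the uncertainty of their copies.

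Cells known to carry these genes were followed through markers. The 8 B cell markers were higher in both knockout libraries in every case, where 30.0% of all genes tested lay above in this way. They summed to 43.4 and 27.3 CPM in the WT pair against 647 and 674. Cxcr5 stood at 11.1% and 18.2% of that sum in WT and at 8.63% and 10.1% in knockout mucosa, and against the median of the markers the groups overlapped. Between genotypes Cxcr5 differed 12.7-fold and the summed B cell markers 18.7-fold. Cxcr4 was at 47.4% and 49.3% of the B cell sum in WT and at 7.03% and 9.59% in knockout libraries. The neutrophil markers, whose cells also carry Cxcr4, summed to 224 and 20.8 CPM in the WT pair and 447 and 791 in knockout mucosa. In WT replicate 1, Ltf made up 126 of the 224 CPM. The part of neutrophils in the Cxcr4 difference was not tested.

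Ccr7 differed 9.93-fold between genotypes and the summed T cell markers 3.57-fold. Single T cell markers ran from 2.53-fold (Cd3g) to 10.3-fold (Cd5), with Cd6 at 8.80-fold and Cd2 at 6.48-fold. The summed B cell markers differed 18.7-fold, and which cells held the Ccr7 difference was not tested. The 8 T cell markers summed to 50.8 and 81.9 CPM in the WT pair and 195 and 279 in knockout libraries, and Ccr7 stood at 7.14% and 4.78% of that sum in WT against 11.6% and 18.7%. The 8 dendritic cell markers summed to 211 and 220 CPM in the WT pair and 246 and 369 in knockout mucosa. Cacnb3 alone made up 105 and 117 CPM of this in WT and 94.9 and 90.9 in knockout mucosa. Ccr7 was at 1.72% and 1.78% of that sum in WT and at 9.25% and 14.1% in knockout mucosa. Against the median of the 8 markers it was at 40.7% and 32.4% in WT and at 164% and 182% in knockout mucosa. Of those 8 markers 4 had both knockout libraries above both WT libraries and 1 had both below, against 30.0% and 26.0% of all genes tested. Lymphatic endothelium markers (a list that includes Ccl21a) overlapped, at 503 and 356 CPM against 306 and 654. Ccl21a was at 6.70% and 5.77% of the sum of the other 7 in WT and at 12.5% and 7.48% in knockout mucosa. The summed macrophage markers were at 455 and 302 against 576 and 770 CPM, and blood endothelium markers overlapped at 523 and 378 against 482 and 854. All these ratios are descriptions of 4 libraries with no test, and those other than Cxcr5 to B cells and Ccr7 to T cells were chosen after the values were seen.

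**Figure D4:**
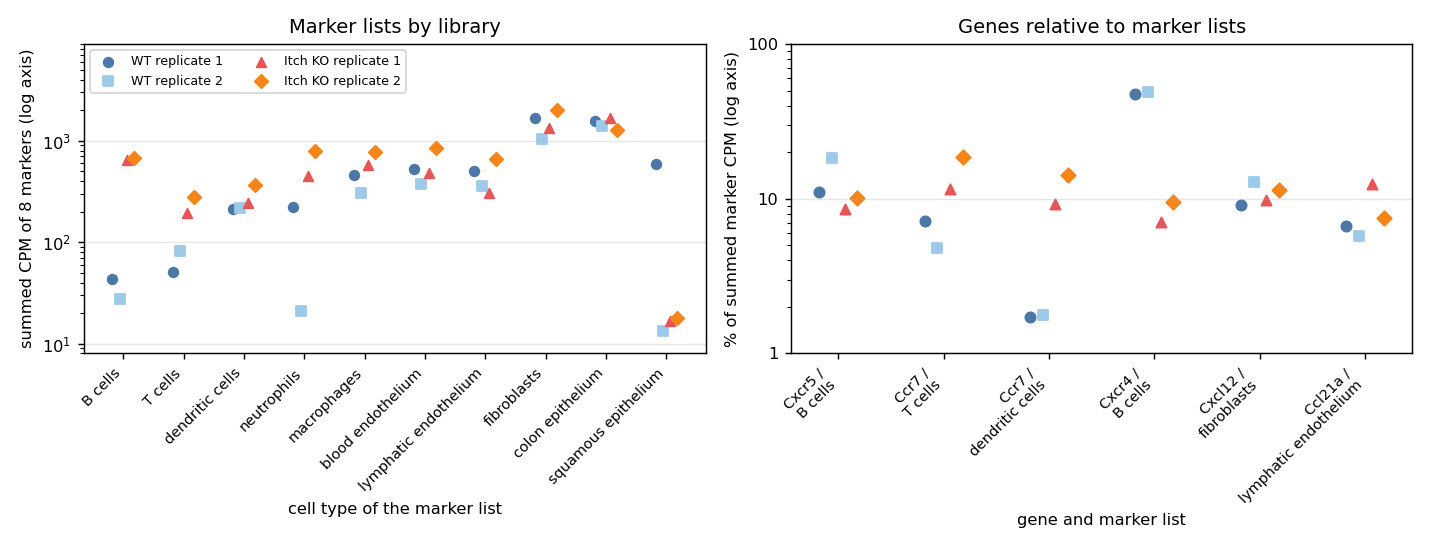
Left, summed CPM of 8 markers for each cell type (log axis) in the 4 libraries. Right, CPM of a gene as a percentage of the summed CPM of a marker list (log axis), leaving the gene itself out of the sum. B cell markers separate the genotypes most clearly, and WT replicate 1 alone is high in squamous markers.

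Lymphotoxin is the signal that induces follicular chemokines, through the LTBR receptor and the alternative NF-kB pathway. In the list of lymphotoxin and lymphoid organ induction genes, 16 of 16 were tested, and DESeq2 called 6 higher and 0 lower, against 5.35% and 4.85% of all genes. edgeR called 0 in either direction, and at an unadjusted p under 0.05 it put 6 higher and 1 lower, against 10.2% and 9.52% of all genes. The median log2 fold change was 0.53 beside 0.01 over all genes tested. Without Itch KO replicate 1 DESeq2 called 4 higher and 1 lower, and without replicate 2 it called 2 higher. Among the ligand genes Lta was at 1.49 and 1.71 CPM in the WT pair and 11.9 and 17.4 in knockout libraries, and Ltb at 5.76 and 13.0 against 60.8 and 66.9. Tnfsf11, which encodes RANKL, was at 2.99 and 1.71 against 21.1 and 38.5 CPM. Tnfrsf13c, the BAFF receptor gene of B cells, was at 2.45 and 1.14 against 42.3 and 47.7 CPM. The receptor gene Tnfrsf11a overlapped, at 156 and 139 against 159 and 108 CPM. Of the genes of the LTBR route, picked after their values were seen, Ltbr and Relb overlapped (edgeR log2 fold change 0.19 and -0.07). DESeq2 called Nfkb2 higher (adjusted p = 0.0334) and did not call Map3k14 (adjusted p = 0.325).

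Follicular dendritic cells hold antigen for B cells through complement and Fc receptors, and high endothelial venules let lymphocytes in from blood. Of 12 such stromal and venule genes, DESeq2 called 5 higher and 0 lower, against 5.35% and 4.85% of all genes, and the median log2 fold change was 1.11 beside 0.01. It called 8 on leaving out WT replicate 1, 3 on leaving out WT replicate 2 and 2 on leaving out Itch KO replicate 2. Cr2, the complement receptor gene of follicular dendritic cells and B cells, was at 5.76 and 1.96 CPM in the WT pair and 121 and 111 in knockout mucosa (edgeR adjusted p = 0.123, DESeq2 adjusted p = 7.95e-19). Madcam1, the addressin of gut venules, was at 13.2 and 7.33 against 55.3 and 75.9 CPM (edgeR adjusted p = 0.123, DESeq2 adjusted p = 5.15e-07). Clu was at 76.3 and 55.7 against 131 and 131 CPM, and Fcgr2b at 43.9 and 22.3 against 88.8 and 139. Mfge8, the highest of the list, was at 109 and 69.9 against 145 and 149 CPM and was not called by DESeq2 (adjusted p = 0.131). Other genes of the list, picked after their values were seen, were Chst4 and Enpp2, which overlapped, and Glycam1 and Ackr1, higher in both knockout libraries. DESeq2 called none of these (adjusted p = 0.835, 0.821, 0.0535 and 0.215). Which cells held the RNA of this list cannot be told from whole mucosa.

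Of 15 follicular and germinal centre B cell genes 14 were listed and tested, and Mef2b was not analysed here. DESeq2 called 8 higher and 0 lower, where 5.35% and 4.85% of all genes were called, and the median log2 fold change was 3.38 beside 0.01. Pax5, the B cell identity factor gene, was at 0.854 and 0.408 CPM in the WT pair and 40.9 and 50.2 in knockout libraries, and Cd22, a B cell inhibitory receptor gene, at 9.82 and 5.38 against 133 and 136. The B cell receptor subunit genes Cd79a and Cd79b were at 6.52 to 8.43 CPM in WT and at 72.4 to 80.6 in knockout libraries. Of 12 follicular helper T cell genes DESeq2 called 7 higher and 0 lower, against the same 5.35% and 4.85% of all genes, with a median of 2.53. With 1 library left out it called 4 without WT replicate 1 or Itch KO replicate 1, 2 without WT replicate 2 and 1 without Itch KO replicate 2. Icos, the costimulatory receptor gene of these cells, was at 4.91 and 4.48 against 28.6 and 52.3 CPM, and Btla at 7.15 and 8.23 against 52.1 and 56.3. Whole mucosa does not show which cells held the RNA of the genes in this list. Sh2d1a, the gene of the signalling adaptor SAP, was at 0.640 and 0.571 against 4.79 and 6.51 CPM. Tnfrsf4, which encodes OX40, was at 3.95 and 4.97 against 14.7 and 27.6, while Cd200, the highest of the list, was at 72.1 and 66.9 against 76.7 and 129 and was not called (DESeq2 adjusted p = 0.409).

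Of other genes that steer lymphocytes, 10 had a positive log2 fold change and 2 a negative one, against 8587 and 8369 of all 16956 genes tested. In the list of atypical receptors, oxysterol guidance and lymphocyte exit, DESeq2 called 4 of 12 higher and 0 lower, against 5.35% and 4.85% of all genes, with a median log2 fold change of 1.76. It called 2 higher without Itch KO replicate 2. Gpr183, the oxysterol receptor that positions activated B cells, was at 7.47 and 4.97 CPM in the WT pair and 33.4 and 44.1 in knockout mucosa. Ccr6 was at 0.533 and 1.39 against 19.7 and 21.4 CPM, and its ligand gene Ccl20, which follicle-associated epithelium expresses, at 4.69 and 4.08 against 17.6 and 14.4. Hsd3b7, an enzyme that degrades oxysterols, overlapped at 65.7 and 82.0 against 68.0 and 77.1 CPM.

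Genes of BCL6 partners and opposing factors (12 tested, Bcl6 among them) had a median log2 fold change of 0.20, and DESeq2 called 2 higher and 2 lower, against 5.35% and 4.85% of all genes. With 1 library left out it called 1 to 2 higher and 0 to 1 lower. The higher pair was Irf4, at 8.22 and 11.4 CPM in the WT pair against 55.9 and 69.6, and Irf8, at 116 and 128 against 187 and 185. Irf4 supports plasma cell and T cell differentiation, and Irf8 acts in B cells and myeloid cells. Of the lower genes, Ncor1, which encodes a corepressor that BCL6 binds, was at 336 and 355 against 240.0 and 213 CPM. Its adjusted p was 0.00173 in DESeq2 and 0.179 in edgeR.

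**Figure D5:**
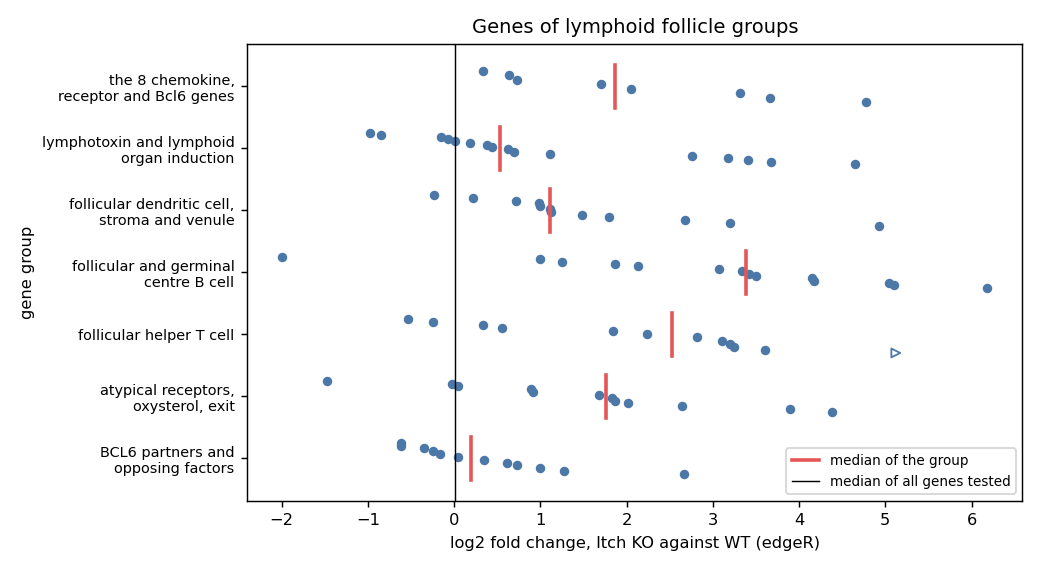
edgeR log2 fold change of each tested gene (points) in the 8 genes and 6 gene groups, with the median of each group (red) and of all tested genes (black line). The open triangle is the lower bound for Il21, which had 0 counts in WT, and the highest median, 3.38, is that of the B cell group.

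The genes whose profile over the 4 libraries lay closest to each of the 8 were found by the Euclidean distance between centred log2 CPM values. Candidates were tested genes whose mean reached 5 CPM. Immunoglobulin and T cell receptor segment genes, genes on the X and Y chromosomes or on unplaced scaffolds, and predicted genes (Gm and Rik names) were left out. Closest to Cxcl13 were Ccl20 (distance 0.228), Ly6c2 (0.305) and Arhgap27os3 (0.319). Closest to Cxcr5 were Slamf6 (0.243), H2-Ob (0.249) and Cd79a (0.359). Near Ccl19 lay Hdc (0.516) and Cacna1i (0.558), and closest to Ccr7 were Hrh2 (0.245), Rasgrp4 (0.255) and Il2ra (0.271). Cxcr4 lay nearest to Bcl2a1b (0.090), Srgn (0.108) and Plaur (0.111), and Bcl2a1b has near-identical paralogs whose reads may be split. Ccl21a lay nearest to Lsp1 (0.057), Adcy7 (0.073) and Emp3 (0.086), Cxcl12 to Hmgn3 (0.023), Plod1 (0.058) and Epn2 (0.103), and Bcl6 to Traf5 (0.066), Sept4 (0.082) and Slc27a3 (0.102). Over only 4 libraries these distances describe likeness and carry no test.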

How the data were processed

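Per the submitters' processing notes, the tools were HTSeq 0.6.1, SAMtools 0.1.19, TopHat2 and CASAVA 1.8.2 and the builds mm10 and GRCm38, with no order given. What the authors deposited for each library is 1 list of raw counts by gene. How strand, duplicates and multiply mapped reads were treated is not given in the sources used here. WT replicate 1 lists 19308 genes and the other files 39179, and tests used the genes shared by all. Reads outside genes (18.2% to 23.0%) and ambiguous reads (2.67% to 3.03%), known for the 3 longer files, stayed out of totals and tests. Gene models came from GENCODE M21 (GRCm38) and upstream sequences from RefSeq.

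Genotypes were compared, two-sided, by the quasi-likelihood test of edgeR 4.0.16 in R 4.3.3 (TMM, filterByExpr at a minimum count of 10, robust, genotype alone in the model), with Benjamini-Hochberg adjustment over 16956 genes. The fit had 2 residual degrees of freedom and a biological coefficient of variation of 34.8%. DESeq2 1.42.0 and limma 3.58.1 (voom) were run on the same genes, and DESeq2 gave 16627 of them an adjusted p. Standard errors of edgeR log2 fold changes were derived from the F statistic. Scripts were tested on simulated counts. The fold of a gene at 0 in WT was set against 3 counts over the group, and floors cover counting error only. Within each group the libraries differed by more than sampling noise (chi-square per gene of 31.1 and 23.2). Alternatives were other scaling factors, filters, tools and estimators, a replicate block and leaving out each library.

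The 8 genes and all lists were chosen with earlier results of these data known. By rule the text names Itch, the 8 genes, from each list the 4 genes of smallest edgeR p and the 1 of highest mean CPM, and the 3 closest profiles per gene. Some genes that this rule names are not reported here.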

Additional observations from a re-analysis of the deposited data

How the results depend on the processing

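limma voom called 0 genes, as did the edgeR alternatives (RLE and upper quartile factors, no filter or a mean of at least 5 CPM, robust=FALSE, each library left out, and the legacy=FALSE estimator added after seeing the data). With a replicate block edgeR also called 0 genes and 0 of the 8. Same-numbered libraries did not deviate together (correlation over genes 0.0481), so nothing here shows that the numbers pair them. Where a library is left out, the lone sample of its group is assumed to vary like the other group. Over the edgeR alternatives, adjusted p ran from 0.0689 to 0.421 for Cxcr5 and from 0.0790 to 0.421 for Cxcl13. DESeq2 called 889 genes higher and 807 lower, and with 1 library left out, added after seeing the data, 158 to 809 higher (584 without WT replicate 2, 667 without Itch KO replicate 1) and 280 to 562 lower (361 without WT replicate 1, 309 without WT replicate 2). The lowest count of genes higher was without Itch KO replicate 2. Of the 8 it called 5, and 2 to 5 with 1 library left out: Cxcl13 and Cxcr5 in all 4 fits, Ccr7 in 3, Cxcr4 in 2 and Ccl19 in 1. Higher calls by DESeq2, then with 1 library left out, were 6 and 2 to 5 for lymphotoxin genes, 5 and 2 to 8 for stromal and venule genes, 8 and 8 to 9 for B cell genes, 7 and 1 to 4 for helper T cell genes, 4 and 2 to 5 for guidance genes, and 2 and 1 to 2 for BCL6 partners. Lower calls were 2 for BCL6 partners and 0 to 1 for them, the lymphotoxin genes and the B cell genes with 1 library left out. Over edgeR fits with 1 library left out Cxcl12 ran from -0.12 to 0.68, and it turned to -0.12 in edgeR and -0.13 in DESeq2 without Itch KO replicate 2. Using the longest transcript instead of all exons, the knockout level per kb became 21.8 for Cxcr5, 31.96 for Cxcl12 and 18.97 for Bcl6, which puts the mean of Cxcl12 above that of Cxcr4, those of Cxcr5 and Bcl6 above that of Ccr7 (18.9), and Ccl19 (12.9) last. Apart from the order of levels, other results kept their direction and side of the threshold except for the DESeq2 calls above, and the Ccl19 log2 ratio of mean CPM moved from 4.74 to 4.31 when summed over its copies. The cause of these differences was not tested. No gene held over 9389 counts in a library, and whether duplicate reads were removed is not stated.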

Other observations

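Genes of the germinal centre reaction were sparse and uneven, and those named here were chosen after their values were seen. Gcsam was at 2.56 and 1.79 CPM in the WT pair against 5.78 and 13.3 in knockout libraries. S1pr2, the receptor that confines germinal centre B cells and is also found on other cells, overlapped at 32.1 and 17.9 against 30.0 and 68.9. Rgs13 was at 34.96 CPM in WT replicate 2 and at 0.747, 2.58 and 6.40 in the others. Il21, the helper cytokine of germinal centres, had 0 counts in both WT libraries and was at 1.47 and 8.16 CPM in knockout mucosa, at least 34.8-fold higher when the WT group is set to 3 counts in all. That bound was 10.6-fold without Itch KO replicate 2, 58.9-fold without Itch KO replicate 1, 19.7-fold without WT replicate 1 and 15-fold without WT replicate 2. In all of these except Rgs13, Itch KO replicate 2 held the highest level of the 4 libraries.

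Il7, the survival cytokine of lymphocytes that stroma and epithelium make, had both knockout libraries below WT, at 37.9 and 33.2 CPM in the WT pair and 19.3 and 16.7 in knockout libraries (log2 fold change -0.98, edgeR adjusted p = 0.173, DESeq2 adjusted p = 0.0572). It and the receptor genes that follow were also chosen after their values were seen. The atypical receptor gene Ackr4, whose product removes CCL19 and CCL21, was at 12.7 and 26.4 CPM in the WT pair and 2.95 and 11.2 in knockout mucosa (log2 fold change -1.47, edgeR adjusted p = 0.380), while its counterpart for CXCL12, Ackr3, overlapped at 61.0 and 34.9 against 33.3 and 65.2 CPM.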
